A study of Mus musculus with 3 samples.

Results

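The genes of neutrophil granule proteins were followed by maturation stage in RNA libraries of single cells sorted from mouse bone marrow. The 10 genes, of 27998 listed in each library, were Elane, Mpo, Prtn3 and Ctsg of the primary (azurophil) granules, Ltf, Camp, Ngp, Lcn2 and Mmp8 of the secondary (specific) granules, and Mmp9 of the tertiary (gelatinase) granules. They were taken by symbol, and their transcripts, counted as unique molecular identifiers (UMIs), were read in 1738 of 16318 called cells that passed either of 2 gates. S100-high cells held at least 3% of their UMIs in S100a8 and S100a9, the abundant calcium-binding protein genes of maturing neutrophils. Elane/Mpo cells held at least 10 UMIs of Elane and Mpo together, so the levels of these genes in that gate were set in part by the gate. Cells were barcodes with 1000 or more UMIs, 500 or more genes and a mitochondrial share under 10%.

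There was 1 library per group. For aGVHD, acute graft-versus-host disease, the library was made from female CB6F1 mice irradiated with 2 exposures of 4.0 Gy, given 5000000 marrow cells of B6.SJL (CD45.1+) donors 4 hours after irradiation, and given 60000000 spleen cells of female C57BL/6 donors as well. The BMT (bone marrow transplantation) library came from female CB6F1 mice with the same irradiation and marrow but no spleen cells. WT was marrow of untreated CB6F1 females. Both transplant groups therefore shared irradiation and B6.SJL marrow, and the aGVHD and BMT mice differed by the spleen cells. The sort aimed at stromal niche cells: cells stained for CD45, a lineage mix or CD71 were depleted, and Calcein AM and DAPI were used against dead cells, so the neutrophils here are cells that passed a sort meant to remove them and their shares do not describe whole marrow. How many mice were pooled, when they were taken after transplantation, their age and the marrow donors' sex: none of these is given in the sources used here. A single library per group leaves no spread between replicates, so no test was possible and no p-value is given. All 95% intervals are exact (Poisson for UMIs, Clopper-Pearson for shares) and cover counting error only.

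Neutrophils make their granules in sequence as they mature. Promyelocytes fill primary granules with serine proteases and myeloperoxidase, myelocytes and metamyelocytes fill secondary granules with lactoferrin, the cathelicidin and lipocalin-2, and band cells fill gelatinase granules, each protein being sorted to the granules that form while its transcript is present. In mouse marrow the factors PU.1 and C/EBP alpha act early in this sequence and C/EBP epsilon is needed for the secondary granule genes. Basophils and mast cells carry their own granule proteases, some of them encoded beside Ctsg.

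The 250 bases before and 50 bases after the RefSeq start of each gene were read for letters bound by these factors, to show what lies before genes of the 2 main classes. The windows came from RefSeq on GRCm38.p6, and 9 of the 10 genes matched, while Mmp9 is named only. The gene spans given further below came from GENCODE, where Elane and Prtn3 begin before the RefSeq starts used here. The Prtn3 window lies wholly inside its GENCODE span. The letters TTNNGCAA (C/EBP), GAGGAA (PU.1) and AACGG (Myb) were searched on both strands and TATAAA on the sense strand only. The C/EBP letters stood in 4 of the 5 secondary granule windows (Ltf, Ngp, Lcn2 and Mmp8) and in 0 of the 4 primary granule windows, against 10.8% of all 32851 windows of that length. The PU.1 letters stood in 4 of 4 primary and 3 of 5 secondary windows, against 28.3% of all windows. The Myb letters stood in 2 of 4 primary windows, those of the neighbours Prtn3 and Elane, and in 0 of 5 secondary windows, against 17.4% of all. TATAAA stood in 0 of 9, against 8.32% of all, and the Camp window held none of the 4. These are matches of letters, not bound sites. The windows of Elane (chr10:79886062-79886361, plus strand) and Prtn3 (chr10:79879417-79879716, plus strand) are shown for the primary class, and those of Ltf (chr9:111019042-111019341, plus strand), Ngp (chr9:110419558-110419857, plus strand), Mmp8 (chr9:7558179-7558478, plus strand) and, as the window without a match, Camp (chr9:109849407-109849706, minus strand) for the secondary class. Each reads 5′ to 3′ along the gene, and capitals mark C/EBP and PU.1 matches on either strand.
Elane: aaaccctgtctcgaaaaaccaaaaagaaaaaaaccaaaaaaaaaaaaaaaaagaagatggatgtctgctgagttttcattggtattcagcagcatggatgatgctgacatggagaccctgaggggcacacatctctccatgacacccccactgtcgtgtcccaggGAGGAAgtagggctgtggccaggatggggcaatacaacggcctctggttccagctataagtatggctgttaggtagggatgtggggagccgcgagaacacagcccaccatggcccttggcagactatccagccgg
Prtn3: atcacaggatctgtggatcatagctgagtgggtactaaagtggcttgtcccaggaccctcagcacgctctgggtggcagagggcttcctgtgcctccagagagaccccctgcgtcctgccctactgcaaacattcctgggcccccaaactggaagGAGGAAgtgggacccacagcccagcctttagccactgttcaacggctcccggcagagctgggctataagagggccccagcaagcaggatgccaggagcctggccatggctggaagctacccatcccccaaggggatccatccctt
Ltf: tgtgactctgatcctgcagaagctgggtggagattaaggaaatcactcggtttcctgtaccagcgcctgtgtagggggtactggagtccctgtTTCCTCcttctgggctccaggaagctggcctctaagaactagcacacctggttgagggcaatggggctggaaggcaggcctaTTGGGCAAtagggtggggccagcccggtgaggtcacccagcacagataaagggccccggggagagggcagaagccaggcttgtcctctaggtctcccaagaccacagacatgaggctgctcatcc
Ngp: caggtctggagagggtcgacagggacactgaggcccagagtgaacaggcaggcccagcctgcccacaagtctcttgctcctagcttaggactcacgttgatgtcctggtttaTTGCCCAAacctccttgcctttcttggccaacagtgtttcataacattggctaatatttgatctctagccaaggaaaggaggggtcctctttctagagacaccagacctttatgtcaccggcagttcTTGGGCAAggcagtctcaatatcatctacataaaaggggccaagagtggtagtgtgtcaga
Mmp8: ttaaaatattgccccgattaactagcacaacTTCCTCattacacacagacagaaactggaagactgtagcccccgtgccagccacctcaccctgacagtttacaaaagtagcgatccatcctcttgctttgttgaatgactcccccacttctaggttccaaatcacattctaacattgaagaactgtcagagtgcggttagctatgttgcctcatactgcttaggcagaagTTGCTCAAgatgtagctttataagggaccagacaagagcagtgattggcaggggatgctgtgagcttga
Camp: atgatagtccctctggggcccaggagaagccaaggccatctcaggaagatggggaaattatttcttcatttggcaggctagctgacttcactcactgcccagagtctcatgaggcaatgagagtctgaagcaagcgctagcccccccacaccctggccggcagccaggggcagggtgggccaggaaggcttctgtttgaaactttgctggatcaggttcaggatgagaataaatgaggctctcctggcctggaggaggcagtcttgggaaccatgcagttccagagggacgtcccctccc
The C/EBP match in Ltf began 75 bases before the start, those in Ngp 138 and 11 bases before it, and that in Mmp8 19 bases before it. The PU.1 match began 85 bases before the start in Elane and 95 bases before it in Prtn3.

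The libraries held 67439098 UMIs in aGVHD, 44219063 in BMT and 86575425 in WT. S100-high cells numbered 697 of 5568 called cells in aGVHD (12.5%, interval 11.7 to 13.4), 764 of 3621 in BMT (21.1%, 19.8 to 22.5) and 99 of 7129 in WT (1.39%, 1.13 to 1.69), with median depths of 7408, 4348 and 6271 UMIs in aGVHD, BMT and WT. Elane/Mpo cells were fewer and deeper: 72 in aGVHD (1.29%), 15 in BMT (0.414%) and 98 in WT (1.37%), with medians of 21214, 37330 and 29209 UMIs. Close to the S100 boundary, 5 aGVHD, 23 BMT and 2 WT cells lay at 3 to 4%, and 2, 16 and 4 cells lay at 2 to 3%. The lowest values inside were 3.14% in aGVHD, 3.01% in BMT and 3.55% in WT, and the highest outside were 2.97%, 2.94% and 2.82%. At the other boundary, 1 aGVHD, 0 BMT and 2 WT cells held exactly 10 UMIs of Elane and Mpo, and 2, 2 and 1 cells held exactly 9. No barcode in a gate occurred in 2 libraries, and 8 to 11 called barcodes did.

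The S100-high cells fitted their label by their markers. The 8 granulocyte markers, among them Csf3r, Cxcr2 and Ly6g, were all detected in each library, and the list summed to 351637 CPM (a gene's UMIs over all UMIs of the same cells, on the usual fixed scale) in aGVHD, 288965 in BMT and 293633 in WT. S100a8 and S100a9, which set the gate, are on that list; Retnlg, a resistin-like gene of neutrophils that the gate did not use, stood at 32231, 29444 and 17352 CPM. Other cell types left traces in them that differed between libraries. The stromal list, 6 of 6 genes detected, stood at 228 CPM in aGVHD, 1422 in BMT and 1965 in WT, and the erythroid list, 7 of 7 detected, at 20719, 6750 and 19678 CPM; their part in the results below was not tested. The basophil, mast and eosinophil list held 22.5 CPM in aGVHD, 4.99 in BMT and 0 in WT S100-high cells. Cells with UMIs of Y-linked genes but none of Xist numbered 326 among aGVHD, 488 among BMT and 0 among WT S100-high cells, while the hosts were female; cells with Xist and no Y-linked UMI numbered 91, 15 and 49.

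The genes that neither gate used lay mostly in 1 of the gates. Of all Prtn3 UMIs in called cells, 81.1% in aGVHD, 85% in BMT and 96.4% in WT lay in Elane/Mpo cells, and of all Ngp UMIs, 99.1%, 99.6% and 83.9% lay in cells that were S100-high alone. Outside both gates lay 34.5% of Ctsg UMIs in aGVHD, 11.7% in BMT and 1.89% in WT. Mmp9, the gelatinase that osteoclasts also make, had 0.982% of its UMIs outside both gates in aGVHD, 14.6% in BMT and 59.3% in WT. The plot of primary against secondary granule CPM in single cells shows both gates together; Elane and Mpo are high in the Elane/Mpo cells by the choice of the gate.

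**Figure D1:**
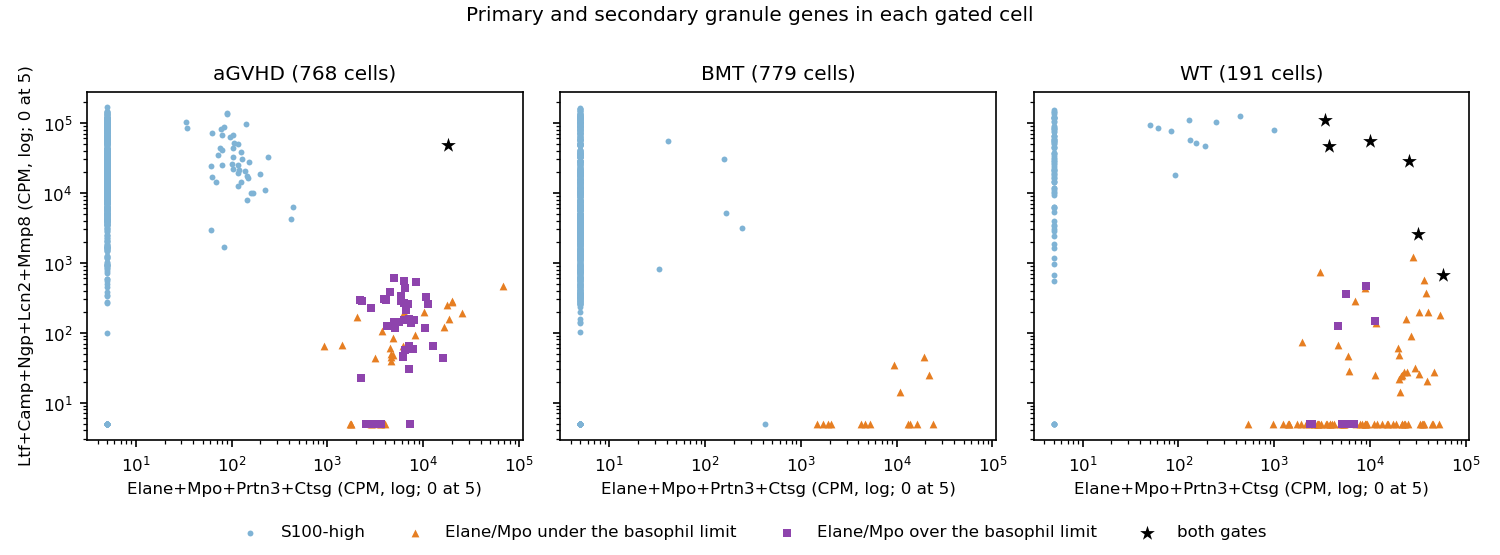
Each point is 1 cell of the aGVHD, BMT or WT library that passed either gate; the x axis is the summed CPM of the 4 primary granule genes, the y axis that of the 5 secondary granule genes, both on log scales with cells at 0 drawn at 5. Most cells lie along 1 of the 2 axes, and the 7 cells that passed both gates (1 aGVHD, 0 BMT and 6 WT) lie high on both or near the Elane/Mpo cells.

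Primary granule transcripts in S100-high cells lay mostly in a few cells. Elane, the neutrophil elastase gene, stood at 47.4 CPM in aGVHD, 0.227 in BMT and 1031 in WT S100-high cells. Almost all of this came from the cells that passed both gates: in aGVHD the 1 such cell held all 278 Elane UMIs, and in WT the 6 such cells held 99.1% of the 1037. Elane had no UMI in the other 696 aGVHD cells, 1 UMI in the 764 BMT cells and 9 in the other 93 WT cells, which were low in part by choice, since cells with 10 or more UMIs of Elane and Mpo had been set apart.

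The other 3 primary genes followed Elane. Mpo, which makes hypochlorous acid from peroxide, had 2 UMIs in the S100-high cells outside the Elane/Mpo gate in aGVHD, 0 in BMT and 4 in WT. Ctsg (cathepsin G) had 8, 1 and 3. Prtn3 (proteinase 3) had the most UMIs of the 4 genes, 40, 4 and 50, or 6.87, 0.908 and 61.0 CPM in aGVHD, BMT and WT. These levels were below its 48.8, 42.3 and 187 CPM in empty droplets, and the gate did not limit Prtn3 as it did Elane and Mpo. The 4 genes together stood in these cells at 4.47% of their level in empty droplets of the same library in aGVHD (interval 3.31 to 5.89), 1.01% in BMT (0.372 to 2.21) and 13.1% in WT (10.1 to 16.7). Setting apart the cells in both gates lowered these levels by construction for Elane and Mpo.

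Secondary granule genes filled the S100-high cells. Ngp, a cathelicidin-like granule protein gene of rodents, stood at 16981 CPM in aGVHD, 13669 in BMT and 22304 in WT. Camp, the cathelicidin antimicrobial peptide gene, stood at 7810, 8024 and 19908 CPM in aGVHD, BMT and WT, with WT above both transplant libraries. Lcn2, lipocalin-2, which binds bacterial siderophores, stood at 13135 CPM in aGVHD, 7659 in BMT and 14098 in WT, with BMT alone low.

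Ltf, the iron-binding lactoferrin, was at 2538 CPM in aGVHD, 2295 in BMT and 2969 in WT. Mmp8, the neutrophil collagenase, was at 1681 CPM in aGVHD, 1492 in BMT and 1169 in WT. Mmp9, gelatinase B, was at 1084, 603 and 776 CPM in aGVHD, BMT and WT. Each of these 6 genes stood at least 8.82-fold above the empty droplets of its library, Mmp9 in BMT being the lowest. In stromal or endothelial cells that passed neither gate, which should lack these genes, the 6 ranged up to 41.4 CPM, for Lcn2 in aGVHD.

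Depth differed between libraries, so detection was also read after each cell was thinned to 1000 UMIs. A UMI of Lcn2 was then found in 93.1% of aGVHD, 69.0% of BMT and 89.9% of WT S100-high cells, against 3.89%, 0.337% and 1.23% of stromal or endothelial cells, whose median depths before thinning were 2707, 6328 and 7407 UMIs. Ngp was found in 75.3% of aGVHD, 39.7% of BMT and 74.7% of WT cells, and Camp in 43.9%, 25.1% and 55.6%. Ltf was found in 33.3%, 17.9% and 43.4%, Mmp8 in 72.5%, 56.0% and 60.6%, and Mmp9 in 63.4%, 43.8% and 55.6%. BMT cells were lowest for all 6 genes. Before thinning, Lcn2 was detected in 96.8%, 80.9% and 93.9%, Ngp in 84.1%, 49.7% and 83.8%, and Camp in 58.2%, 31.8% and 64.6% of aGVHD, BMT and WT cells.

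The secondary genes were uneven between cells of 1 library. Without the cells in both gates, the median cell held 9470 CPM of Lcn2 in aGVHD, 2357 in BMT and 13870 in WT, with 10th and 90th percentiles of 1623 and 22832 in aGVHD, 0 and 14167 in BMT, and 858 and 22915 in WT. No Lcn2 UMI was found in 3.16% of aGVHD, 19.1% of BMT and 5.38% of WT cells. Ngp had a median of 5897 CPM in aGVHD, 0 in BMT and 12351 in WT, and was at 0 in 15.9%, 50.3% and 16.1% of the cells. Camp and Ltf were missing from many cells: Camp was at 0 in 41.8%, 68.2% and 37.6% and Ltf in 53.4%, 77.7% and 47.3% of aGVHD, BMT and WT cells, while the 90th percentile of Camp reached 19786, 14200 and 34876 CPM. Mmp8 and Mmp9 were spread more evenly, with medians of 1676 and 984 CPM in aGVHD, 996 and 476 in BMT and 1625 and 958 in WT.

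Elane/Mpo cells showed the opposite make-up. Elane stood at 820 CPM in aGVHD, 2541 in BMT and 4617 in WT, Mpo at 1868, 3331 and 4626, Prtn3 at 1385, 2482 and 5385, and Ctsg at 3124, 2481 and 3675. Thus 3 of the 4 primary genes were highest in WT and lowest in aGVHD, and Ctsg was lowest in BMT. All 4 stood at least 26.1-fold above empty droplets in each library, which the gate itself fixed for Elane and Mpo.

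Camp, Ngp and Ltf transcripts in aGVHD and WT Elane/Mpo cells came almost entirely from the cells that passed both gates, and those of Lcn2 did so less in aGVHD. Camp had 1268 UMIs in aGVHD, 0 in BMT and 5144 in WT Elane/Mpo cells, and cells in both gates held 99.7% of them in aGVHD and 99.1% in WT. Of Lcn2 the same cells held 44.6% of 332 UMIs in aGVHD and 91.0% of 1419 in WT, and of the few Mmp8 UMIs 0 of 1 and 3 of 13. Under the basophil limit given below and outside the S100 gate, 1 Camp UMI was left in 30 aGVHD cells, 0 in 15 BMT cells and 44 in 83 WT cells. Of Lcn2, 58 UMIs (78.8 CPM) were left in aGVHD, 4 (7.32 CPM) in BMT and 102 (38.8 CPM) in WT. These Lcn2 levels were below those of empty droplets, at 919, 628 and 227 CPM, while stromal or endothelial cells held 41.4, 4.91 and 9.95 CPM. The 7 other neutrophil transcripts given with the empty droplets at the end stood at 0.562%, 0.214% and 0.531% of their empty-droplet level in such cells. Lcn2 at the same percentage would be at 5.17, 1.34 and 1.20 CPM. For WT this percentage was read only in the 70 cells under 0.1% S100 UMIs, where Lcn2 stood at 25.4 CPM (19.0 to 33.2). S100a8 and S100a9 are among the 7, so the percentages are low in part by choice. Lcn2 was found in 20 of 30 aGVHD, 4 of 15 BMT and 22 of 83 WT cells, with at most 7, 1 and 24 UMIs in a cell. It was thus above the level given by the 7 transcripts in each library. It was above stromal or endothelial cells in aGVHD (59.8 to 102) and WT (31.6 to 47.0), while the BMT interval (1.99 to 18.7) held their level. The source of Lcn2 was not tested.

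Between these 2 kinds of cell, with the cells in both gates set apart and Elane/Mpo cells under the basophil limit, the members differed by orders of magnitude. Setting apart the cells that carried both classes enlarged these folds by construction. Over the whole gates, Camp stood at 7810 CPM in S100-high and 799 in Elane/Mpo cells in aGVHD, and at 19908 and 1733 in WT. Prtn3 in WT stood at 5385 CPM in Elane/Mpo and 960 in S100-high cells. Camp was 5626-fold higher in S100-high than in Elane/Mpo cells in aGVHD, where the Elane/Mpo side held only 1 UMI (the inverse ratio was 0.000178, interval 4.5e-06 to 0.00099), at least 1462-fold higher in BMT, where it held 0 and a floor of 3 UMIs over the group was used, and 1088-fold higher in WT. Ngp was 2506-fold higher in aGVHD and 967-fold higher in WT. In the other direction, Prtn3 was 343-fold higher in Elane/Mpo than in S100-high cells in aGVHD (251 to 482), 2735-fold in BMT (1066 to 10051) and 93.8-fold in WT (71.1 to 126).

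The Elane/Mpo gate took in a second kind of cell. Mcpt8, Prss34, Cpa3 and other genes of basophils, mast cells and eosinophils made up at least 0.5% of UMIs in 41 of 72 aGVHD cells, 0 of 15 BMT cells and 9 of 98 WT cells; this limit was set after the data were seen, and 8, 2 and 2 cells lay between 0.25% and 1%. In the cells over the limit the list summed to 44059 CPM in aGVHD and 39771 CPM in WT, while Ly6g and Csf3r had no UMI in either.

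The primary genes split by this limit. In aGVHD, Ctsg stood at 4368 CPM over the limit and 1816 under it, a ratio of 2.41 (2.26 to 2.56), and in WT at 4658 and 3623, a ratio of 1.29 (1.19 to 1.39). Elane went the other way, with 335 CPM over and 1331 under the limit in aGVHD, 3.98-fold lower over it (3.48 to 4.56); 1 of the 41 cells held 218 of the 272 UMIs, and without it Elane was at 70.5 CPM over the limit, 18.9-fold lower (14.4 to 25.3). In WT, Elane stood at 13.3 CPM over and 4862 CPM under the limit, from only 2 UMIs over it, below the 146 CPM of WT empty droplets. Prtn3 stood at 246 and 2582 CPM in aGVHD, 10.5-fold lower over the limit (9.07 to 12.2) or 19.4-fold lower (15.9 to 23.9) without the 1 cell that held 98 of the 200 UMIs, and at 93.3 and 5667 CPM in WT, 60.7-fold lower (36.2 to 111) and below the 187 CPM of WT empty droplets. Mpo differed less, with 1500 and 2254 CPM over and under the limit in aGVHD and 1639 and 4785 in WT. Ms4a3, a membrane protein gene of granulocyte precursors, was at 600.3 and 515 CPM over and under in aGVHD and at 519.8 and 819.5 in WT.

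Cell by cell, Ctsg held the most UMIs of the 4 primary genes in 36 of 41 aGVHD and 7 of 9 WT cells over the limit, against 9 of 31 aGVHD, 4 of 15 BMT and 5 of 89 WT cells under it. Elane had no UMI in 28 of 41 aGVHD and 8 of 9 WT cells over the limit, against 6 of 31 aGVHD, 2 of 15 BMT and 25 of 89 WT cells under it. Ctsg lies on chromosome 14 (56099881 to 56102574, minus strand, GRCm38) with Mcpt8 as its neighbour, and Prtn3 and Elane are neighbours on chromosome 10 (79874476 to 79883174 and 79886247 to 79888215). The aGVHD gate was thus made up of more basophil-marked cells than the WT gate, and over the whole gate the share of such cells and the level per cell cannot be told apart.

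**Figure D2:**
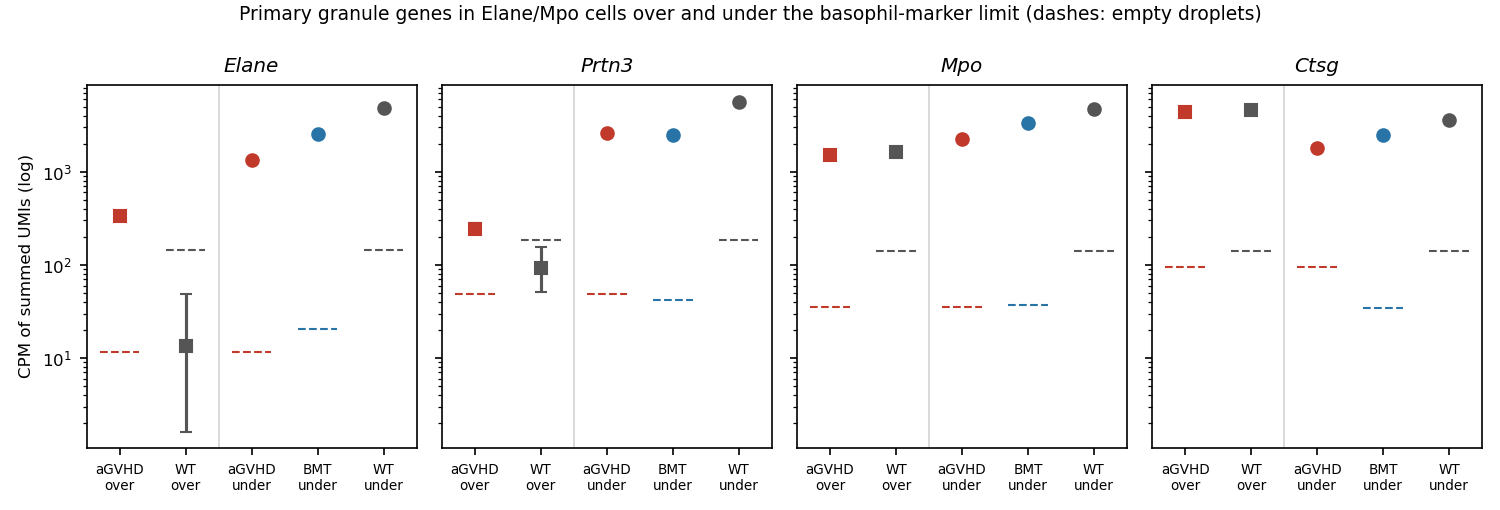
CPM on a log scale of the 4 primary granule genes in Elane/Mpo cells over and under the basophil limit, by library; bars are exact 95% Poisson intervals and dashes the empty droplets. Ctsg lies higher over the limit in aGVHD and WT, at 4368 and 4658 CPM, and Elane and Prtn3 lie lower over it.

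Under the limit, the cells of 1 library differed in whether they held Elane. In WT, 54 of 89 cells held at least 10 Elane UMIs, with Elane at 6545 CPM and Ms4a3 at 1098 CPM, and 25 held none, with only 10 Ms4a3 UMIs in all, Mpo at 1543 CPM and Cd34, a progenitor surface marker, at 249.8 CPM. Cd34 stood at 71.8 CPM in the 54 cells. Irf8, a factor of the monocyte lineage, was at 195 CPM in the 25 cells and 92.4 CPM in the 54. In aGVHD, 12 of 31 cells held at least 10 Elane UMIs and 6 held none, with Ms4a3 at 777 CPM in the 12 and 263 in the 6, Cd34 at 122 and 137 CPM, and Irf8 at 28.7 and 11.4 CPM, from 8 and 2 UMIs. In BMT, 8 of 15 held at least 10 and 2 held none, with Ms4a3 at 491 and 233 CPM, Cd34 at 166 and 82.1 CPM, and Irf8 at 91.7 and 164 CPM. The WT pattern of higher Cd34 and Irf8 without Elane was thus not found for Irf8 in aGVHD or for Cd34 in BMT, on few UMIs.

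Elane/Mpo cells with a low S100 share were found in WT. Among cells outside the basophil limit, 13 WT Elane/Mpo cells held 0.1% to 3% of their UMIs in S100a8 and S100a9, against 0 in aGVHD and 0 in BMT. These 13 cells held 34 to 742 UMIs of Elane and at most 1 of Ltf, 35 of Camp, 28 of Ngp, 24 of Lcn2, 2 of Mmp8 and 0 of Mmp9. S100 transcripts were thus present while transcripts of the 5 secondary members were few. Chil3, a further secondary granule gene, stood at 2769 CPM in the 8 cells at 0.1 to 1% and at 69.9 CPM in the 5 cells at 1 to 3%. WT empty droplets held 0.847% of their UMIs in S100a8 and S100a9, above the lowest of these cells (0.104%). The part of free RNA in these S100 shares was not tested. The 15 BMT and 30 aGVHD cells of this kind all lay under 0.1%.

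The 7 cells in both gates carried both classes. In WT they held 3.68%, 6.71%, 12.96%, 17.7%, 19.4% and 26.3% S100 UMIs, with 1, 46, 826, 861, 1280 and 2086 Camp UMIs in that order. Elane in the same order had 29, 275, 488, 36, 162 and 38 UMIs. Ltf had 0, 0, 0, 33, 17 and 208, so Camp was present in WT cells in which Ltf was not. Mmp8 had 3 UMIs in 1 of these cells and 0 in the other 5, and Mmp9 had 8 UMIs in 1 of them. The 1 aGVHD cell held 11.1% S100 UMIs, 278 of Elane, 1264 of Camp, 9 of Ltf and 0 of Mmp8 and Mmp9. Doublets were not removed; the aGVHD cell and 3 of the 6 WT cells were among the likely doublets by Scrublet score, and whether they are doublets was not tested.

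Levels were also read along the S100 share in WT. Below 3% only Elane/Mpo cells entered, so that primary genes are high there by choice. Elane stood at 3149 CPM in cells under 0.1%, 10713 at 0.1 to 1%, 11899 at 1 to 3%, 3299 at 3 to 10%, 3727 at 10 to 20%, 170 at 20 to 30% and 17.1 at 30 to 40%, with 0 UMIs above. Camp stood at 0.958, 3.18, 179, 1584, 20630, 28604 and 19588 CPM in the same 7 ranges and at 15642 above 40%. Mmp8 stood at 3.83, 6.36, 0, 716, 217, 770 and 1795 CPM and at 1809 above 40%. Within the WT S100-high cells, at 3% and above, Elane was thus highest below 20%, Camp at 20 to 30% and Mmp8 above 30%. The transplant libraries did not share this order of Camp and Mmp8. For aGVHD, Camp peaked above 40% (14239 CPM) and Mmp8 at 20 to 30% (2012 CPM, against 1581 above 40%). For BMT, Camp peaked above 40% too (23510 CPM), and Mmp8 at 30 to 40% (2071 CPM, against 1909 above 40%). In WT, all 304 Elane UMIs at 3 to 10% and all 686 at 10 to 20% lay in cells in both gates. Of the 40 at 20 to 30%, 1 such cell held 38. Most of the 3797 Camp UMIs at 10 to 20% lay in such cells as well. The WT Elane levels from 3 to 30% thus rest on 6 cells taken for Elane and Mpo, 3 of them likely doublets. These WT ranges held 5 to 70 cells each. The erythroid list reached 74186 CPM at 3 to 10% and 68911 CPM at 10 to 20%, and its part was not tested.

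**Figure D3:**
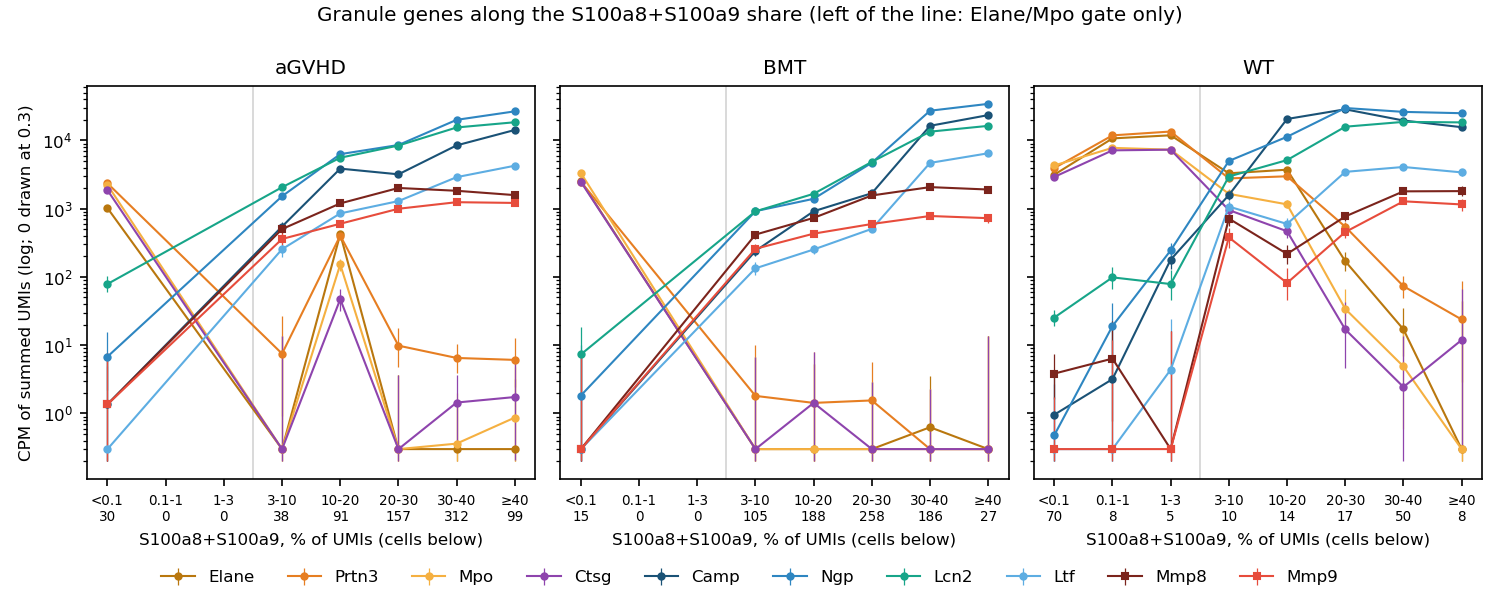
CPM on a log scale of the 10 genes against the share of UMIs in S100a8 and S100a9, by library, with bars as exact 95% Poisson intervals and values of 0 drawn at 0.3. Left of the line, below 3%, only Elane/Mpo cells under the basophil limit are drawn, chosen for Elane and Mpo; aGVHD and BMT had no such cell between 0.1% and 3%, and right of the line in WT, Mmp8 and Mmp9 are highest above 30%.

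Within S100-high cells, stage was read from genes outside the 10. A score, log2 of (early + 1) over (late + 1) UMIs, set 11 genes of precursors and of the cell cycle (Fcnb, Chil3, Cebpe and Mki67 among them) against 11 genes of mature neutrophils (Cxcr2, Csf3r and Il1b among them); early means a score above 1, late below -1. Early, middle and late cells numbered 12, 44 and 641 in aGVHD, 8, 15 and 741 in BMT and 15, 12 and 72 in WT. The late share was 92.0% in aGVHD, 97.0% in BMT and 72.7% in WT. These are ranges of a score and not cell types, and 29, 9 and 5 cells lay within 0.25 of a boundary. The score shares genes with the lists of other granule genes and factors below. Ms4a3, Fcnb, Chil3 and Cebpe are on its early side and Fpr1 on its late side. Early cells were thus chosen in part by granule genes, and member levels over the ranges are not independent of that choice.

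The secondary genes did not share a single course over these ranges. Camp was at 38404, 22382 and 4962 CPM in early, middle and late aGVHD cells, at 44401, 27621 and 6007 in BMT, and at 36833, 26387 and 6140 in WT, so the early level was 7.74, 7.39 and 6.00 times the late level in aGVHD, BMT and WT. Ltf was 4.42, 5.74 and 1.77 times as high in early as in late cells, and Ngp 2.99, 4.78 and 2.29 times. Ltf in WT was higher in the middle range (5897 CPM) than in the early range (3304 CPM). The WT early range took in the 6 cells in both gates, which held 185337 UMIs in all but 258 of the 1163 early Ltf UMIs. The WT levels by range were not read without these cells.

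Lcn2 declined less: early over late it was 1.65 in aGVHD, 3.15 in BMT and 1.02 (0.982 to 1.06) in WT. The WT value includes the 6 cells in both gates, all of them early and 3 of them likely doublets. They held 1292 of the 4593 early Lcn2 UMIs, and the ratio was not read without them. Mmp8 was low early and high late, at 230, 945 and 1822 CPM in aGVHD, 246, 1259 and 1540 in BMT and 39.8, 1453 and 1874 in WT, an early over late ratio of 0.126, 0.160 and 0.0212. Mmp9 was at 500, 969 and 1118 CPM in aGVHD, 271, 699 and 608 in BMT and 82.4, 1139 and 1152 in WT. Mmp8, though counted with the secondary granule, was like Mmp9 lower in early than in late cells in each library. Elane had 278 early UMIs in aGVHD, all in 1 cell, 0 in BMT and 1030 in WT, and 0, 1 and 0 late UMIs. Of the 1030, 1028 lay in the 6 WT cells in both gates.

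**Figure D4:**
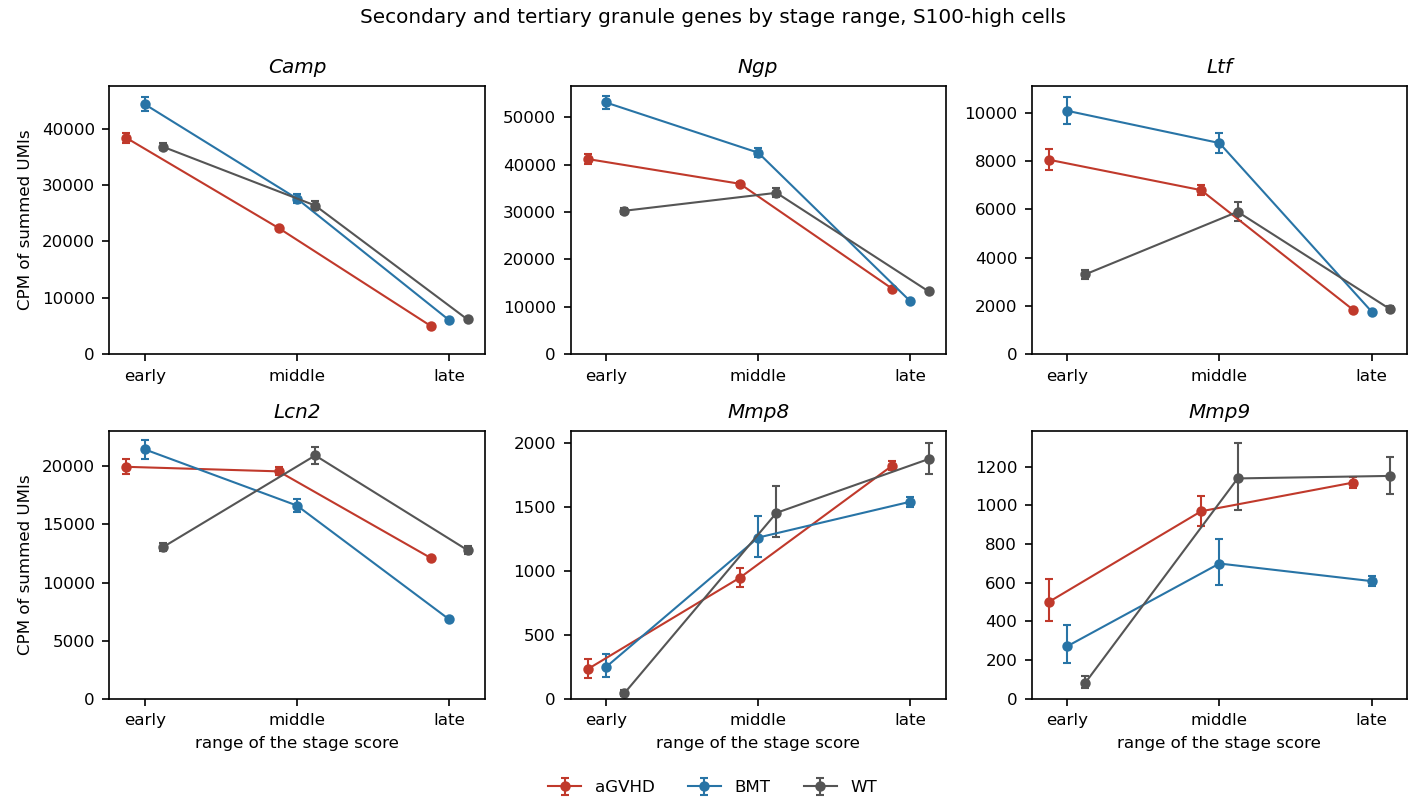
CPM on linear scales of the 5 secondary and the 1 tertiary granule genes in the early, middle and late ranges of S100-high cells, by library, with exact 95% Poisson intervals. Camp, Ltf and Ngp are lower in late than in early cells, and Mmp8 and Mmp9 are higher in late than in early cells. In WT, where the early range holds the 6 cells in both gates, Lcn2 is as high late as early.

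The comparison of aGVHD with BMT asks what differed when spleen cells were added. In S100-high cells, Lcn2 was at 1.71 times its BMT level in aGVHD (1.69 to 1.74) and Mmp9 at 1.80 times (1.72 to 1.88), both short of the 2-fold limit used for a call. These ratios weight cells by depth: with the mean of per-cell CPM, Lcn2 was at 2.21-fold, past the limit, and Mmp9 at 1.89. Ngp was at 1.24-fold, Mmp8 at 1.13, Ltf at 1.11 and Camp at 0.973. A gene was called when both libraries together held at least 50 UMIs, the ratio was at least 2-fold and its interval excluded 1. By this rule 3 of 9 measured members were higher in aGVHD (Elane, Mpo and Prtn3), where 3.53% of 6546 measured genes were, and 0 were lower, where 15.6% were. All 3 calls rested on the 1 aGVHD cell in both gates: without it 0 members were higher and 0 lower, against 3.22% and 15.9% of 6516 genes. The median gene stood at a log2 ratio of -0.32, and Lcn2 stood at the percentile 94 and Mmp9 at the percentile 95 of the measured genes. By the interval bound nearest 1, and with the 1 aGVHD cell in both gates kept, the 5 genes furthest above over all genes were Stfa2, Elane, Prtn3, Mpo and Retnla. The 5 furthest below were Ibsp, Bglap, Bglap2, Col1a1 and Col11a1, genes of bone matrix and collagens. The stromal list moved with the library here, at 228 CPM in aGVHD and 1422 in BMT, and its part in the member ratios was not tested.

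The Lcn2 and Mmp9 ratios were as large within the late range. Late cells gave 12105 CPM of Lcn2 in aGVHD and 6820 in BMT, a ratio of 1.77 (1.75 to 1.80), and 1118 and 608 CPM of Mmp9, a ratio of 1.84 (1.75 to 1.93). Camp in late cells was at a ratio of 0.826 and Ltf at 1.04. No member was called in late cells, 0 of 6 higher where 2.99% of 6181 genes were and 0 lower where 16.8% were. The median late cell held 8952 CPM of Lcn2 in aGVHD and 2257 in BMT. Depth differed as well, with a median of 6977 UMIs in late aGVHD cells and 4282 in late BMT cells, and its part was not tested. Scores within the late range were not matched between the libraries.

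The comparison of BMT with WT asks what differed after irradiation and marrow transfer. In S100-high cells, 5 of 10 measured members were called lower in BMT (the 4 primary genes and Camp), where 13.7% of 5404 genes were, and 0 were called higher, where 16.4% were. Camp was at 0.403-fold (0.396 to 0.410), Lcn2 at 0.543, Ngp at 0.613, Ltf at 0.773, Mmp9 at 0.777 and Mmp8 at 1.28. Without the 6 WT cells in both gates, 3 of 7 measured members were lower, Camp at 0.441, Lcn2 at 0.488 and Prtn3 at 0.0149, against 7.92% of 5229 genes, and 0 were higher, against 15.6%. These ratios weight cells by depth. The mean of per-cell CPM in the same cells was past 2-fold lower in BMT for Camp (3874 against 11111 in WT), Lcn2 (4978 against 13419), Ngp (7201 against 17045) and Ltf (1113 against 2459). By that mean Mmp9 (568 against 1057) fell short of 2-fold. Mmp8 (1255 against 1653) was lower in BMT rather than higher. Over all genes and with the cells in both gates kept, the 5 furthest below in BMT by the same bound were Elane, Mpo, Prtn3, Ctsg and Ms4a3. The 6 WT cells in both gates held 94.8% to 99.1% of the WT S100-high UMIs of the 4 primary genes. Without them only 1 of these 4 was measured. The 5 furthest above were Ddx3y, Eif2s3y, Pf4, Iigp1 and Fabp4, of which the first pair is Y-linked.

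Within the late range the summed Camp levels of BMT and WT lay close together. These sums weight cells by depth, and means of per-cell CPM were not taken in late cells. In late cells Camp stood at 6007 CPM in BMT and 6140 in WT, a ratio of 0.978, whereas Lcn2 stood at 6820 and 12790, a ratio of 0.533, and Mmp9 at 608 and 1152, a ratio of 0.527. Among late cells 0 members were called lower or higher in BMT, against 4.78% and 14.4% of 4810 genes. Late aGVHD cells lay close to WT in Lcn2, at 12105 CPM in aGVHD and 12790 in WT, and in Mmp9, at 1118 and 1152 CPM. BMT thus had the lowest Lcn2 and Mmp9 of the 3 libraries among late cells, with ratios of summed UMIs short of 2-fold. The late range has no lower end, so scores within it were not matched between libraries. Late cells held 171320 UMIs of the late and 8301 of the early score genes in BMT, 223995 and 15192 in aGVHD, and 20190 and 1865 in WT. The part of this difference was not tested.

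**Figure D5:**
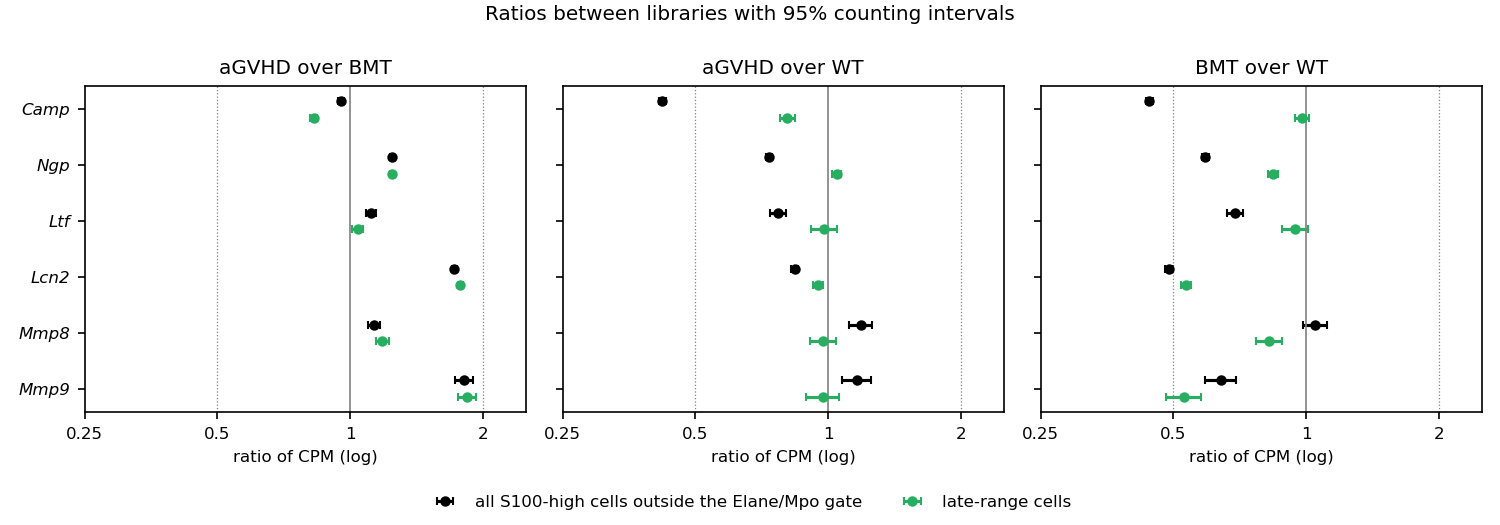
Ratios of CPM on a log scale (aGVHD over BMT, aGVHD over WT, BMT over WT) for 6 granule genes, in all S100-high cells outside the Elane/Mpo gate (black) and in late-range cells (green), with exact 95% intervals and dotted lines at 0.5 and 2. Lcn2 and Mmp9 lie above 1 in aGVHD over BMT and below 1 in BMT over WT.

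In Elane/Mpo cells, aGVHD over BMT gave 3 members called higher (Camp, Ngp and Lcn2), where 6.08% of 4605 genes were, and 1 called lower (Elane, 0.323-fold), where 5.99% were. Under the basophil limit alone the same comparison of 31 and 15 cells gave 3 higher and 0 lower, where 2.76% and 4.12% of 3298 genes were. Under the basophil limit and outside the S100 gate, 30 aGVHD and 15 BMT cells gave Lcn2 higher (10.8-fold, 3.99 to 40.8, from 58 and 4 UMIs) and Elane lower (0.401-fold, 0.367 to 0.439), where 2.54% and 3.87% of 3231 genes were. Mpo was at 0.670, Ctsg at 0.753 and Prtn3 at 0.949 (0.883 to 1.02), so the interval of Prtn3 held 1. The Lcn2 values are those given above, whose source was not tested.

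In the same gate, BMT over WT gave 0 members higher, where 6.2% of 6047 genes were, and 5 lower (Prtn3, Ltf, Camp, Ngp and Lcn2), where 5.23% were; under the limit alone it again gave 5 lower, where 5.24% were, and 0 higher, where 6.19% were. Under the limit and outside the S100 gate, Prtn3 was at 0.434 (0.410 to 0.459), Elane at 0.528, Ctsg at 0.651 and Mpo at 0.669, and 3 of 6 measured members were lower (Prtn3, Ngp and Lcn2), against 4.96% of 5763 genes, and 0 were higher, against 6% of genes. The WT gate held 83 such cells and BMT 15.

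The third pairing, aGVHD over WT, shares its libraries with the others. In S100-high cells 5 of 10 measured members were lower in aGVHD (the 4 primary genes and Camp, at 0.392), where 15.9% of 5461 genes were, and 0 were higher, where 5.4% were. Without the cells in both gates, Prtn3 and Camp (0.420) were lower of 7 measured, against 9.55% of 5248 genes, and 0 were higher, against 4.69%. In late cells 0 of 6 were lower, where 6.01% of 4674 genes were, and 0 higher, where 4.51% were. In Elane/Mpo cells 7 of 8 measured members were lower, where 5.63% of 6785 genes were, and 0 were higher, where 6.72% were. Under the limit alone 5 of 8 were lower, where 5.59% of 6066 genes were, and 0 higher, where 4.4% were. Under the limit and outside the S100 gate all 4 primary genes were lower in aGVHD, Elane at 0.212 (0.197 to 0.228), Prtn3 at 0.412, Mpo at 0.448 and Ctsg at 0.490, against 6.03% of 5892 genes; of the 2 other measured members Ngp was lower and Lcn2 higher, where 4.4% of genes were. The summed levels of all 4 were thus highest in WT, while the median cell held 4594 CPM of the 4 genes together in aGVHD, 9429 in BMT and 9249 in WT. In all Elane/Mpo cells under the limit, the stromal list stood at 232 CPM in aGVHD, 1152 in BMT and 3281 in WT, with up to 139835 CPM in a WT cell. The erythroid list stood at 581, 42.1 and 4013 CPM, and the part of both was not tested.

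Other granule genes, listed with earlier results known, gave the following in S100-high cells. Ms4a3, Chil3, Fcnb and Fpr1, and the factor gene Cebpe, are also score genes, so these lists and the score lists overlap. The most abundant of each list were Srgn, the granule proteoglycan, at 6035 CPM in aGVHD, 9846 in BMT and 3311 in WT, Pglyrp1, a peptidoglycan-binding protein, at 2530.5, 1642 and 2048 CPM, Cd14 at 2472, 1824 and 730.1 CPM, and the factor gene Cebpb at 3019, 3634 and 1725 CPM. The genes named next were picked because they passed the call. Of 8 further primary granule and processing genes, 5 were measured in aGVHD over BMT and 2 were higher in aGVHD: Ctsc, the cathepsin that activates the serine proteases, at 40.8 CPM in aGVHD and 10.9 in BMT, and Ms4a3 at 7.68 and 2.04 CPM, or 1.20 CPM in aGVHD without the 1 cell in both gates, then with too few UMIs for a call. Of 10 further secondary granule genes, 1 of 9 measured was higher, Chil3 (chitinase-like protein 3), at 2402 and 878 CPM. Of 8 measured tertiary granule and vesicle genes 0 were higher and 1 lower. Serpinb1a, an inhibitor of elastase and its relatives, was 3.52-fold higher, at 236 CPM in aGVHD and 67.2 in BMT. Of 6 measured transcription factors, Cebpe was higher and Cebpa and Myb were lower. The early score genes gave 6 of 11 higher and 0 lower, and the late score genes 0 higher and 3 of 11 lower (Ccl6, Clec4d and Il1b), where 3.53% of all measured genes were higher and 15.6% lower. Without the 1 cell in both gates, 5 of 10 measured early genes were higher and 1 lower, Fcnb, at 4.29 CPM in aGVHD and 9.76 in BMT.

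For BMT over WT in S100-high cells, 3 of 9 measured secondary granule genes were lower (Chil3, Orm1 and Cybb), with Chil3 at 878 CPM in BMT and 5778 in WT, where 13.7% of all measured genes were lower and 16.4% higher. Of 5 measured primary granule and processing genes, Srgn was higher and Ctsc and Ms4a3 lower. Among tertiary genes, Adam8, Cd14 and Slc11a1 were higher in BMT, and Fcnb, a ficolin of precursor cells, was lower, at 9.76 CPM in BMT and 397 in WT, or 152 in WT without the 6 cells in both gates, with Alpl lower as well. Without those cells Adam8 and Slc11a1 were at 1.96 and 1.98-fold and no longer called. Serpinb1a was lower, at 67.2 and 574 CPM, and Slpi, another elastase inhibitor, was higher, at 2480 and 993 CPM. Timp2 was higher and Timp3 lower, of 4 measured inhibitors. Of the early score genes 10 of 11 were lower in BMT, or 8 of 10 measured without the cells in both gates, and of the late score genes 4 of 11 were higher. Of 6 measured transcription factors Cebpb was higher and Cebpe lower. Cebpe, the factor of the secondary granule genes, stood at 24.2 CPM in aGVHD, 8.62 in BMT and 145 in WT, or 85.4 in WT without the cells in both gates.

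The genes whose levels across cells were most like the summed primary genes, by the mean of the within-library Pearson correlations in Elane/Mpo cells (72 aGVHD, 15 BMT and 98 WT cells, 8707 genes compared), were Ms4a3 (0.749), Prss57 (0.643), Trem3 (0.642), Gstm1 (0.612) and Sec61b (0.602). For the summed secondary genes in S100-high cells (697, 764 and 99 cells, 4149 genes) they were Cd177 (0.737), Anxa1 (0.730), Ifitm6 (0.711), Wfdc21 (0.695) and Lyz2 (0.689). The cells share their library and differ in depth, and the values are descriptions.

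Co-detection of a primary and a secondary gene in the same thinned cell occurred in 16 of 768 aGVHD cells in either gate (2.08%, 1.195 to 3.36), 0 of 779 BMT cells and 11 of 191 WT cells (5.76%, 2.91 to 10.1). For 0 of 779 at this depth, the floor of 3 counts gives an upper limit of 0.385%; with all UMIs, 9 of 779 BMT cells (1.16%) held both. The cells had been chosen for 1 class or the other, which lowers such shares by construction. In stromal or endothelial cells, 0 of 771, 0 of 889 and 0 of 2674 held both. At full depth with at least 10 UMIs of each class, 3 of 768 aGVHD (0.391%), 0 of 779 BMT and 13 of 191 WT cells (6.81%) did. Ltf and Camp were found together in 30.7% of aGVHD, 17.3% of BMT and 43.4% of WT S100-high cells, where the product of the separate shares gave 14.6%, 4.51% and 24.1%. Camp and Mmp8 were found together in 32.7%, 21.3% and 35.4%, where the product gave 31.8%, 14.1% and 33.7%.

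Empty droplets (at most 100 UMIs) carried all 10 genes in each library. Ngp stood there at 1163 CPM in aGVHD, 1157 in BMT and 425 in WT, Camp at 586, 660 and 758, and Lcn2 at 919, 628 and 227. Elane stood at 11.7 CPM in aGVHD, 20.3 in BMT and 146 in WT, and Mpo at 35.6, 37.0 and 140. The free RNA thus held more secondary transcripts other than Camp in the transplant libraries and more primary transcripts in WT. In Elane/Mpo cells under the limit and, for WT, under 0.1% S100 UMIs, S100a8, S100a9, Ltf, Camp, Ngp, Mmp8 and Mmp9 together reached 0.562% of their empty-droplet level in 30 aGVHD cells, 0.214% in 15 BMT cells and 0.531% in 70 WT cells. All of these cells lay outside the S100 gate, so this share is low in part by choice.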

How the data were processed

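The deposited data were UMI counts per gene and barcode for 3 libraries of sorted mouse bone marrow (aGVHD, BMT and WT, 1 each), made by the authors with Cell Ranger 3.1.0, per the file headers; Cell Ranger, Seurat and mm10 are named in the submitters' processing notes. The matrices were unfiltered. Barcodes with at least 1000 UMIs, 500 genes and under 10% mitochondrial UMIs were kept as cells, and barcodes of at most 100 UMIs served as empty droplets. UMIs were summed per gate and library and divided by the summed total (CPM). Ratios had exact conditional intervals; a call needed 50 UMIs over both libraries, 2-fold and an interval without 1. A count of 0 was set to a floor of 3 UMIs over the group for a bound. Cells were thinned to 1000 UMIs with seed 1. Doublets were kept; Scrublet (scanpy) marked 248 aGVHD, 105 BMT and 407 WT cells at the expected rate, and 88, 33 and 197 at its own threshold, and removing the first set was an alternative. Stromal or endothelial cells passed neither gate and held at least 3% stromal or 0.5% endothelial marker UMIs. The ratio intervals and calls were tested on simulated data. Gene positions came from GENCODE M21 and promoters from RefSeq GRCm38.p6. Of 8 transcription factors listed, 7 were in the gene list and Cebpd was not. Python 3.11.15, numpy 2.4.6, scipy 1.17.1, pandas 2.3.3, scanpy 1.11.5 and matplotlib 3.10.9 were used. The members and lists were chosen with earlier results of these data known. By a fixed rule the text names the 10 members, the genes with the most UMIs in the lists and the 5 most alike genes per class. The 5 genes furthest above and below are named only for aGVHD over BMT and BMT over WT in S100-high cells. List genes named for passing a call were chosen after their values were seen. The basophil limit, the limits for stromal or endothelial cells, the removal of cells in both gates, the late-range comparison, leaving out the cell over the basophil limit with most UMIs of a gene, and the limit of 10 UMIs of each class were chosen after seeing the data.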

Additional observations from a re-analysis of the deposited data

How the results depend on the processing

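No paired analysis was possible because there was 1 library per group. Over 500 pairs of a member and an alternative, 183 called ratios were called the same way and 0 the other way, 4 fell short of a call, 26 lost it because fewer than 50 UMIs were left, and 8 ratios gained a call. In S100-high cells, members higher in aGVHD over BMT went to 0 when likely doublets were removed, without cells in both gates and in late-range cells only. Members lower in BMT over WT went to 8 with the mean of per-cell CPM, to 3 without cells in both gates and to 0 in late-range cells. In Elane/Mpo cells, members higher in aGVHD over BMT went to 1 with doublets removed, without cells in both gates, and under the basophil limit outside the S100 gate, and members lower to 0 under the limit alone. Members lower in BMT over WT went to 3 without cells in both gates, and to 3 under the limit outside the S100 gate. S100-high shares moved to 10.6% in aGVHD and 18.4% in BMT at a minimum of 500 UMIs, and to 13.9% in aGVHD, 23.6% in BMT and 1.71% in WT at a mitochondrial limit of 5%. The Elane/Mpo share in aGVHD was 1.80% at 5 UMIs and 0.736% at 20 UMIs. Members lower in the early range in aGVHD were 1 with cells thinned to 1000 UMIs, against 2 (Mmp8 and Mmp9) otherwise. Co-detection without thinning was 13.4% in aGVHD, 1.16% in BMT and 26.2% in WT, and in aGVHD it was 0.391% both when a gene counted from 2 UMIs and with at least 10 UMIs of each class. Without the 1 cell over the basophil limit with most UMIs of the gene, the ratio over against under moved from 0.251 to 0.0529 for Elane, from 0.0953 to 0.0516 for Prtn3 and from 0.665 to 0.556 for Mpo in aGVHD, and from 1.29 to 1.14 for Ctsg in WT. Of the counts of list genes in S100-high cells, 46 stayed within 1.5 times without the cells in both gates and 14 moved. Levels over empty droplets kept at least 2-fold for all definitions tried. The causes of these moves were not tested. The 15 BMT Elane/Mpo cells and the 99 WT S100-high cells limit the precision, and the counting intervals do not cover the spread between mice.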
